A study of Mus musculus with 12 samples.

Results

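Metallothioneins and zinc transporters are described here in the liver of sedentary and trained mice. Members were taken by gene symbol: Mt1, Mt2, Mtf1, Slc30a1, Slc30a10, Slc39a4, Slc39a8 and Slc39a14. All 8 are among the 16821 genes of the files, and all 8 passed the filter on low values that left 10241 genes for testing. The samples were liver tissue, cut away from the large vessels and bile ducts, of adult male C57BL/6J mice, 8 weeks old when obtained, and no genetic change or drug is named for either group. The chronic exercise (Exe) group of 6 mice had moderate treadmill running for 6 weeks, with sessions of 60 min on 5 days of each week, and the sedentary control (Con) group of 6 mice was housed alongside and did not run. Each mouse gave 1 library, named here by its group and number, so that each SD given is one between animals. Livers were taken within a day of the last run after a saline perfusion, and levels are in FPKM, which counts sequenced fragments relative to transcript length and to the mapped fragments of the library.

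Metallothioneins are small, cysteine-rich proteins that bind zinc and copper and serve as a store and buffer of both metals in the cell. MTF1, the protein of Mtf1, senses free zinc and switches on metallothionein genes and the zinc exporter Slc30a1 through short DNA motifs called metal response elements. SLC30 (ZnT) proteins move metal out of the cytosol, and SLC39 (ZIP) proteins move it in. In liver, metallothionein transcripts are known to respond to zinc, glucocorticoids and the cytokines of the acute-phase response, and SLC39A14, SLC39A8 and SLC30A10 also carry manganese.

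The promoters of the metallothionein pair and of the 2 exporters are shown because they hold the motif that MTF1 is known to bind. The sequences are those of RefSeq (GRCm38.p6, which is not the build of the deposited values), plus strand, the 250 bases before the annotated start. Capitals mark the core of the metal response element, searched as TGCACNC and TGCGCNC on both strands. The Mt1 window is chr8:94178839-94179088, the Mt2 window chr8:94172368-94172617, the Slc30a1 window chr1:191906531-191906780 and the Slc30a10 window chr1:185454598-185454847.
Mt1: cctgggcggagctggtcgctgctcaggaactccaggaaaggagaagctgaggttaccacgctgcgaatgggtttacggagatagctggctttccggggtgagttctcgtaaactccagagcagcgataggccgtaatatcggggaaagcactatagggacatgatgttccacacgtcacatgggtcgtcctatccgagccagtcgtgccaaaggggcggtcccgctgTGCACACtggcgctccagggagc
Mt2: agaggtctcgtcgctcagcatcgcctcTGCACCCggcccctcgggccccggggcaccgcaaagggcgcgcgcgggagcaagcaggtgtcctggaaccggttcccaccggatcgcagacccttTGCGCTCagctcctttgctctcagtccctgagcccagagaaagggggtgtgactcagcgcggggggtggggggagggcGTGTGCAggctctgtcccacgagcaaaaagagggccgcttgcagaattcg
Slc30a1: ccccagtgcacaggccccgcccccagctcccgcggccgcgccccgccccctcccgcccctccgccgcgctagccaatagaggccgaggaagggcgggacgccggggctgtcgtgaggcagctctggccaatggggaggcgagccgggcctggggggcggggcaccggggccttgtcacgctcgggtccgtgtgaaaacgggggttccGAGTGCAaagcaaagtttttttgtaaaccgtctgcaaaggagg
Slc30a10: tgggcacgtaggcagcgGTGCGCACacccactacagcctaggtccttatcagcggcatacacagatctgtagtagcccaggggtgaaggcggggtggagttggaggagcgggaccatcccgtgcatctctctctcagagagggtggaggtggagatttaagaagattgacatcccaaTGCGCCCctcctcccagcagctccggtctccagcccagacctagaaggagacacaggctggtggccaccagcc

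Mt1 held 1 core, which began 23 bases before the start, and Mt2 held 3, between 223 and 50 bases before it. Slc30a1 held 1 core, on the reverse strand and 43 bases before the start. Slc30a10 held 3, of which a pair overlap in 1 stretch on opposite strands. Among all 32851 windows of this length in the table, 21.4% held 1 or more cores and 1.26% held 3 or more. Mtf1 held 0, and of the 2 windows of Slc39a8 1 held 0 and the other 1. Slc39a4 and Slc39a14 have no entry. Such a match describes the letters only. Bases after the annotated start were not searched, so the counts are not those of a whole promoter. Whether the annotated start is the one used in liver was not examined either. The counts and distances therefore hold for these windows only and do not rank the genes.

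In the files, summed FPKM lay between 735200 and 820107 per mouse. The depth in reads is unknown, and per the study's methods the authors used a principal component analysis to leave out mice that stood apart. Relative depth, from 94 genes whose low FPKM step in whole multiples, lay between 0.981 and 1.02. Genes whose values strayed from whole multiples were left out, so this range cannot show whether depth differed by more. Hepatocyte markers such as Alb, the gene of albumin (mean 39374 FPKM), showed the tissue to be liver, with a summed level of 57879 to 75056 FPKM in Con mice and 66516 to 82825 FPKM in Exe mice over 6 markers. Markers of pancreatic acinar cells stood apart in Exe 5 (sum 19.2 FPKM, against 0.800 to 5.14 FPKM in the other Exe mice) and in Con 6 (2.93 FPKM, against 0.600 to 1.14 FPKM). Between groups, 0 of the 10241 genes (0%) passed an adjusted p of 0.05 (limma, adjusted by Benjamini-Hochberg), where the smallest was 0.519, and 636 (6.21%) passed an unadjusted p of 0.05.

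Mt1 (NCBI gene ID 17748) and Mt2 (17750), the metallothioneins that hepatocytes use, varied more between mice of the same group than nearly all other genes. Mt1 lay between 22.95 and 811.79 FPKM in Con mice, with a median of 115 FPKM. In Exe mice Mt1 lay between 31.44 and 612.67 FPKM, with a median of 66.8 FPKM. The highest mouse was 35.4 times the lowest in the Con group and 19.5 times in the Exe group, and the groups overlapped over nearly their whole range.

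Mt2 ran from 3.23 to 326.24 FPKM in Con mice (median 32.2 FPKM). In Exe mice it ran from 5.09 to 256.73 FPKM (median 19.5 FPKM). Con 2 held the highest and Exe 5 the second highest level of both genes, and Con 4 and Exe 4 held the lowest ones. For Mt2, the highest mouse was 101 times the lowest, both in the Con group.

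The SD of log2(FPKM + 1) within groups was 1.61 for Mt1 and 2.0 for Mt2, against a median of 0.140 over the genes tested. By this SD Mt2 was the 4th and Mt1 the 8th most variable of the 10241 genes. Slc30a10 (0.309) and Slc39a14 (0.288) were also more variable than most genes, above 92.0% and 90.4% of them. The remaining members lay between 0.130 (Mtf1) and 0.214 (Slc30a1). The 3 genes above Mt2, named after their values were seen, were Saa2, Saa1 and Lcn2, which encode serum amyloid A proteins and lipocalin 2, all known acute-phase products. Orm2, Hamp and Moxd1 lay between Mt2 and Mt1, and Orm2 and Hamp, the gene of hepcidin, are known to respond to inflammation too.

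**Figure D1:**
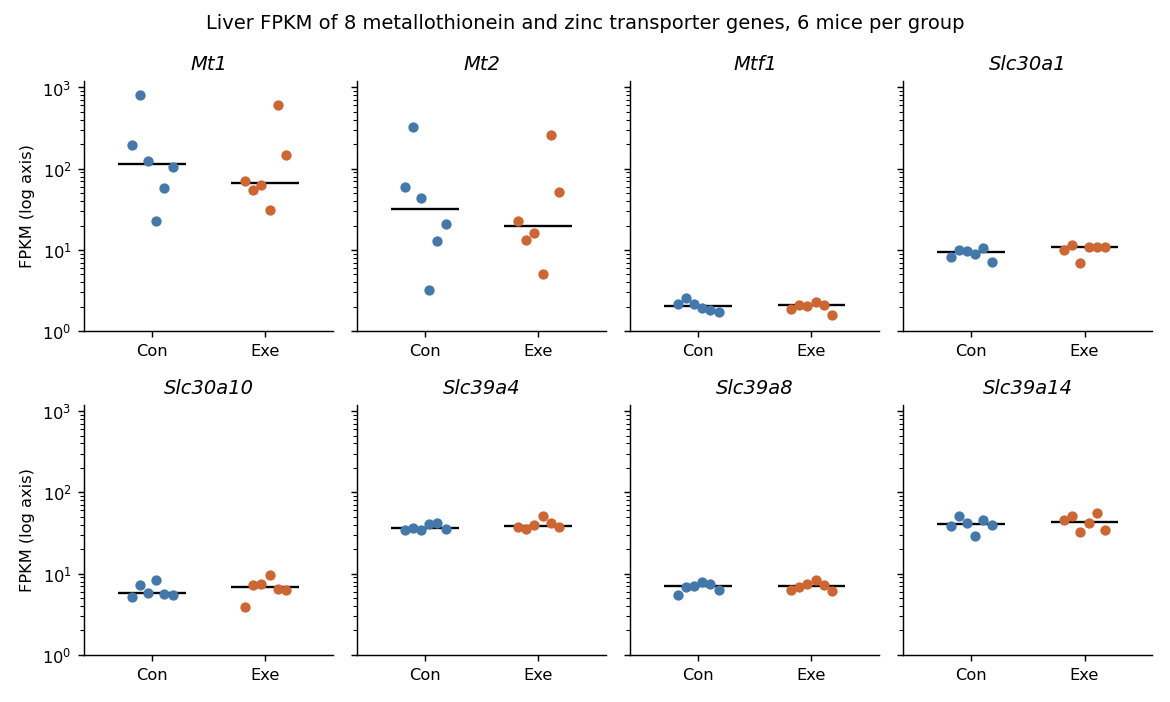
FPKM of each member on a shared log axis, 1 point per mouse in the order of mouse numbers within a group (Con blue, Exe orange), with the group median as a line. Mt1 and Mt2 spread over more than a decade in both groups, from 22.95 to 811.79 FPKM for Mt1. On this axis each of the other 6 genes stays within a narrower band in which Con and Exe mice overlap.

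Compared with Con mice, neither metallothionein differed in Exe mice beyond the spread between animals. Mt1 was at 220 ± 296 FPKM in the Con group and 163 ± 224 FPKM in the Exe group (SD, n = 6 mice each). On the log2(FPKM + 1) scale the difference, as a log2 fold change, was -0.33 (standard error 0.80, 95% interval -2.05 to 1.38), with an adjusted p of 0.969 from limma. The exact two-sided permutation test over all divisions of the mice into groups of 6 gave p = 0.719.

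Mt2 was at 77.7 ± 123 FPKM in the Con group and 61.0 ± 97.2 FPKM in the Exe group (SD, n = 6). Its log2 fold change was -0.21 (standard error 0.99, interval -2.34 to 1.93, adjusted p = 0.986 from limma), and the exact permutation p was 0.868. Of the 6 Exe mice, 2 lay above the Con median in each gene. Both intervals are wide, so the data do not show that the levels were alike. Without Con 2 the estimates changed sign, to 0.22 for Mt1 and 0.46 for Mt2, and without Con 6 and Exe 5 they were -0.91 and -0.96. Con 6 and Exe 5 were left out for markers of other tissue that stood apart within their group. Exe 3 (3.29 FPKM) and Exe 4 (5.14 FPKM) had higher pancreatic acinar sums than Con 6 (2.93 FPKM) but stayed in. Without Exe 5 alone the estimates were -0.87 and -0.85, and without Con 6 alone -0.37 and -0.32.

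Both genes moved together from mouse to mouse. Pearson's r of their log2(FPKM + 1) over 12 mice was 0.99, and Spearman's rho was also 0.99 (permutation p = 1e-05 for each, the smallest that 100000 permutations can give, and 0.000520 with Benjamini-Hochberg adjustment over 52 relations computed). Within groups r was 0.99 in Con mice and 0.99 in Exe mice (exact permutation p = 0.00139 for each). Without Con 2 and Exe 5, the mice farthest from the median of Mt1, r was 0.98 (permutation p = 1e-05). Of the 12 mice, 8 held the same rank in both genes.

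The ratio of Mt1 to Mt2 was not constant. It was lowest in the mice with the highest levels, at 2.39 in Exe 5 and 2.49 in Con 2, and highest in the mice with the lowest levels, at 6.18 in Exe 4 and 7.11 in Con 4. By group the ratio was 4.21 ± 1.71 in Con mice and 3.76 ± 1.35 in Exe mice (SD, n = 6), with an exact permutation p of 0.641 for its log2. The transcripts of the pair (GENCODE release M21) were 73.3% identical over 494 aligned bases of the longest ones. The longest identical run between any of their transcripts was 20 bases. Other metallothioneins added almost nothing, since Mt3, known from the brain, was listed at 0 in 10 mice and at 0.21 FPKM in Exe 4 and Exe 5. Mt4 was looked for as well but was not among the 16821 genes listed.

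The level of the metallothionein pair followed the acute-phase genes of the liver. The acute-phase score, the mean log2(FPKM + 1) of 18 genes of secreted or inducible proteins such as Saa1, Hp and Lcn2, had r = 0.83 and rho = 0.92 with Mt1 over 12 mice (permutation p = 0.00069 and 0.00007, adjusted 0.0179 and 0.00182). With Mt2 it had r = 0.81 and rho = 0.90 (permutation p = 0.00113 and 0.00013, adjusted 0.0196 and 0.00225). Within groups, r with Mt1 was 0.78 in Con mice and 0.88 in Exe mice (exact permutation p = 0.0431 and 0.0264). For Mt2 these were 0.77 and 0.88 (exact permutation p = 0.0653 and 0.0250). Without Con 1 and Exe 5, the farthest mice by score, r was 0.78 with Mt1 and 0.77 with Mt2 (permutation p = 0.00127 and 0.00329).

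With 1 mouse fewer, r stayed at or above 0.77 for Mt1 and 0.75 for Mt2, but the adjusted p passed 0.05 without Con 4, Exe 2, Exe 4 or Exe 5, reaching 0.0785, and was 0.0805 without Con 6 and Exe 5. All 17 genes of the list that were tested had a positive r with Mt1, with a median of 0.75 and a range from 0.51 (Crp) to 0.90 (Hp, the gene of haptoglobin). The share of all genes tested with a positive r is not given here. Genes of a list do not vary independently of each other, so the count is a description. The order was not the same throughout. Con 1 had a score of 9.75 and Mt1 at 197.68 FPKM, and Con 2 had a lower score of 9.16 and Mt1 at 811.79 FPKM. The score itself was 8.53 ± 1.02 in Con mice and 8.18 ± 0.91 in Exe mice (SD, n = 6, exact permutation p = 0.526). With the score as a covariate, the log2 fold changes were 0.14 for Mt1 and 0.38 for Mt2 (adjusted p = 0.988 and 0.971 from limma).

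**Figure D2:**
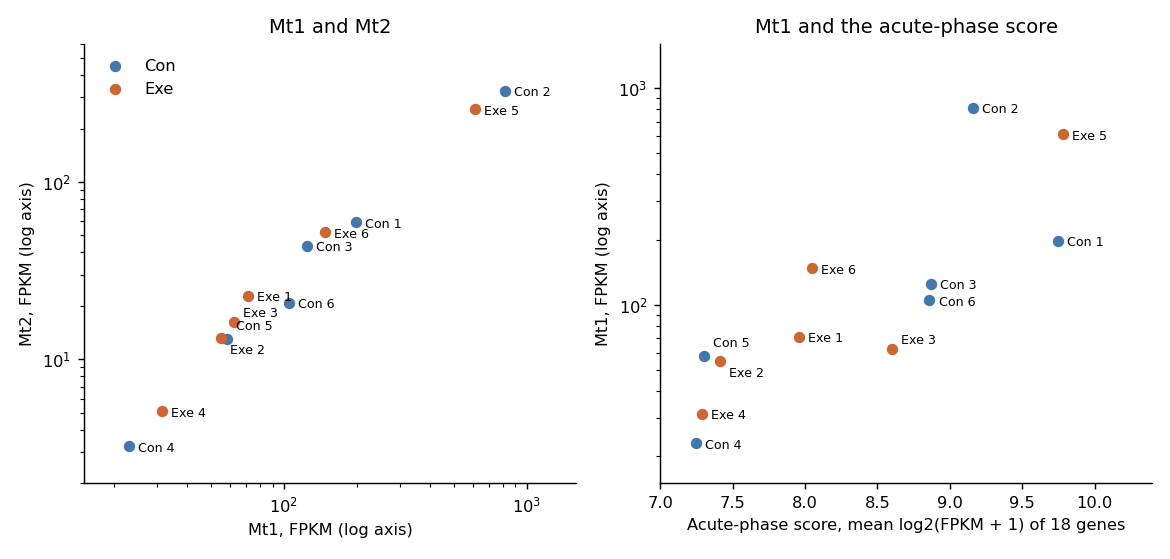
Mt2 against Mt1 in FPKM on log axes (left), and Mt1 in FPKM on a log axis against the acute-phase score (right), 1 labelled point per mouse, Con blue and Exe orange. The points of Mt1 and Mt2 lie near a single line from Con 4 to Con 2, and Mt1 is higher in mice with a higher score, with Con 2 above and Exe 3 below the general course.

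Markers of some other cells moved with the pair as well. All 6 Kupffer cell markers, such as Clec4f and Vsig4, had a positive r with Mt1 (median 0.58), and none was at 0 in any mouse. For counts of markers by the sign of r, too, the share over all genes is not given here. Their summed level was 130 to 243 FPKM in Con mice and 90.6 to 229 FPKM in Exe mice, highest in Con 2 and Exe 5. The 6 neutrophil markers summed to 11.9 to 34.1 FPKM in Con mice and 8.92 to 52.2 FPKM in Exe mice, and Camp and Ly6g were at 0 in at least 7 mice. The 2 neutrophil markers tested had a median r of 0.59 with Mt1, from 0.42 for S100a8 to 0.76 for S100a9. This was the highest median of the cell types, but the neutrophil list as a whole did not move together. Of its markers below the filter, Ly6g had an r of 0.65, Retnlg 0.10, Ngp -0.08 and Camp -0.19. The 6 hepatocyte markers all had an r of 0 or below with Mt1 (median -0.49). Red blood cell markers summed to 235 to 903 FPKM in Con mice and 400 to 1290 FPKM in Exe mice, with a median r of -0.16 with Mt1. Median r with Mt1 was -0.37 for 5 sinusoidal endothelium markers, 0.16 for 5 stellate cell markers and 0.46 for the 2 bile duct markers tested, and -0.42 for Fabp2, the 1 intestine marker tested. The bile duct markers below the filter, Krt19, Krt7 and Epcam, had r of -0.04, 0.13 and 0.05. The pancreatic acinar markers were all below the filter. Their r with Mt1 was 0.47 for Amy2a5, 0.49 for Pnlip, 0.52 for Cela2a, 0.49 for Cpa1, 0.50 for Prss2 and 0.06 for Ctrb1. Pnlip, Cpa1 and Prss2 were each above 0 in 2 mice only, and the sum of the list was highest in Exe 5, at 19.2 FPKM. The part of these cells in the levels of Mt1 and Mt2 was not tested, and in whole liver more cells of a type and more RNA per cell cannot be told apart.

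Genes whose pattern over the 12 mice was most like that of Mt1 were 2010003K11Rik (r = 0.90), Hp (r = 0.90) and Fgl1 (r = 0.89), by Pearson's r of log2(FPKM + 1) among the genes tested. The same 3 genes led the list for Mt2, with r = 0.90, 0.91 and 0.89. Fgl1, the gene of the hepatokine fibrinogen-like 1, lay between 227.78 and 1140.65 FPKM, and Hp between 2001.89 and 7921.87 FPKM. This likeness is a description, from the best of many genes.

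For the other 2 scores no relation with the pair passed an adjusted p of 0.05 over the 12 mice. A score of 14 glucocorticoid-induced genes had r = 0.13 with Mt1 and 0.14 with Mt2, and a score of 12 targets of NRF2, a regulator of the response to oxidative stress, had r = -0.29 and -0.33. Unlike the acute-phase list, these lists were mixed. The r of single tested genes with Mt1 ran from -0.62 to 0.68 and from -0.76 to 0.62, so the scores do not stand for each gene. Within groups the glucocorticoid score had r = 0.51 with Mt1 in Con mice and -0.71 in Exe mice (exact permutation p = 0.325 and 0.103), and 0.59 and -0.70 with Mt2 (exact permutation p = 0.247 and 0.119). The NRF2 score had r = -0.76 with Mt1 in Con mice and 0.25 in Exe mice (exact permutation p = 0.0653 and 0.690). The differences between groups in these r were not tested. The glucocorticoid score was 4.75 ± 0.34 in Con mice and 4.44 ± 0.21 in Exe mice (SD, n = 6, exact permutation p = 0.0909). Exe 5, with high Mt1, had the lowest glucocorticoid score of all mice, at 4.12, and Con 2 had one of 4.87.

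Mtf1 (17764), the zinc sensor that acts on the motif printed above, was the lowest of the members. It lay between 1.74 and 2.55 FPKM in Con mice (median 2.06 FPKM) and between 1.59 and 2.31 FPKM in Exe mice (median 2.08 FPKM). Its mean was 2.08 ± 0.293 FPKM in the Con group and 2.01 ± 0.251 FPKM in the Exe group (SD, n = 6), a log2 fold change of -0.03 (standard error 0.08, interval -0.20 to 0.14, adjusted p = 0.969 from limma). The highest Mtf1 was in Con 2, the mouse with the highest Mt1, but over 12 mice r between them was 0.31 (permutation p = 0.322, adjusted 0.642). The highest mouse was 1.6 times the lowest, against 35.4 times for Mt1.

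Of the exporters, Slc30a1 (22782), which carries zinc out across the plasma membrane, lay between 7.09 and 10.53 FPKM in Con mice (median 9.38 FPKM). In Exe mice it lay between 7.0 and 11.44 FPKM (median 10.8 FPKM). Exe 3 held the lowest level, and the other 5 Exe mice were at 10.12 FPKM or higher. The means were 9.08 ± 1.29 FPKM in the Con group and 10.2 ± 1.61 FPKM in the Exe group (SD, n = 6), a log2 fold change of 0.14 (standard error 0.11, interval -0.10 to 0.39). The adjusted p was 0.922 from limma and the exact permutation p was 0.260. Leaving out mice moved the log2 fold change to 0.24 without Exe 3, 0.08 without Con 6 and 0.06 without Con 6 and Exe 5.

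Slc30a1 shares with Mt1 and Mt2 the regulation by MTF1 known from other work, and its printed promoter window holds 1 core of the motif. Over these mice its r was 0.08 with Mt1 and 0.12 with Mt2, and its highest level, 11.44 FPKM, was in Exe 2, whose Mt1 of 54.85 FPKM was among the lowest. Across mice with a 35.4-fold range of Mt1, Slc30a1 covered a 1.63-fold range.

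Slc30a10 (226781), an exporter known mainly for manganese, ran from 5.13 to 8.44 FPKM in Con mice (median 5.75 FPKM). In Exe mice it ran from 3.89 to 9.53 FPKM (median 6.83 FPKM), so that both the lowest and the highest mouse, Exe 1 and Exe 4, were in the Exe group. The means were 6.29 ± 1.28 and 6.80 ± 1.84 FPKM (SD, n = 6), with a log2 fold change of 0.08 (standard error 0.16, interval -0.26 to 0.42, adjusted p = 0.962 from limma). The 3 genes most like it over the 12 mice were Ppm1b (r = 0.94), Ndrg3 (r = 0.92) and Rbm6 (r = 0.92).

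Of the 3 importers among the members, Slc39a14 (213053) and Slc39a4 (72027) were the most abundant. Slc39a14, which takes up zinc, iron and manganese and is known to respond to interleukin 6, lay between 28.90 and 50.83 FPKM in Con mice (median 41.1 FPKM). In Exe mice it lay between 32.19 and 55.29 FPKM (median 43.5 FPKM). Its highest levels were in Exe 5, Exe 2 and Con 2, and its lowest in Con 4.

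The means of Slc39a14 were 41.2 ± 7.47 FPKM in the Con group and 43.5 ± 9.14 FPKM in the Exe group (SD, n = 6), a log2 fold change of 0.07 (standard error 0.15, interval -0.25 to 0.39, adjusted p = 0.966 from limma). With Mt1 its r over 12 mice was 0.54 (permutation p = 0.0705, adjusted 0.303), and without Con 2 and Exe 5 r was 0.15. With the acute-phase score its r was 0.25 (permutation p = 0.433, adjusted 0.663). Among the 3 genes most like Slc39a14 was another zinc transporter, Slc30a5, which supplies zinc to the secretory pathway (r = 0.83), beside Zfp213 (r = 0.85) and Pwp1 (r = 0.83).

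Slc39a4, the zinc importer best known from the intestine, was between 34.10 and 41.92 FPKM in Con mice (median 36.0 FPKM). In Exe mice it was between 35.94 and 50.58 FPKM (median 39.1 FPKM), and 5 of the 6 Exe mice were above the Con median. The means were 37.1 ± 3.36 and 40.8 ± 5.30 FPKM (SD, n = 6). Its log2 fold change of 0.13 (standard error 0.08, interval -0.05 to 0.31) had the smallest p-value of the 8 members, an unadjusted 0.145 and an adjusted 0.896 from limma, with an exact permutation p of 0.175. Without Exe 4, the highest mouse, it was 0.07. The genes most like it were Taf3 (r = 0.86), Rpl22l1 (r = 0.84) and Abca7 (r = 0.84).

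Slc39a8 (67547), which carries zinc and manganese, lay between 5.52 and 8.0 FPKM in Con mice (median 6.96 FPKM) and between 6.05 and 8.24 FPKM in Exe mice (median 7.03 FPKM). The means were 6.88 ± 0.880 and 7.03 ± 0.788 FPKM (SD, n = 6), a log2 fold change of 0.03 (standard error 0.09, interval -0.15 to 0.22, adjusted p = 0.975 from limma). Its coefficient of variation over the 12 mice was 11.5%, near the 11.9% of Slc39a4, against 131% for Mt1 and 153% for Mt2. The genes most like it were Seh1l (r = 0.94), Aasdhppt (r = 0.94) and Gm4952 (r = 0.92).

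**Figure D3:**
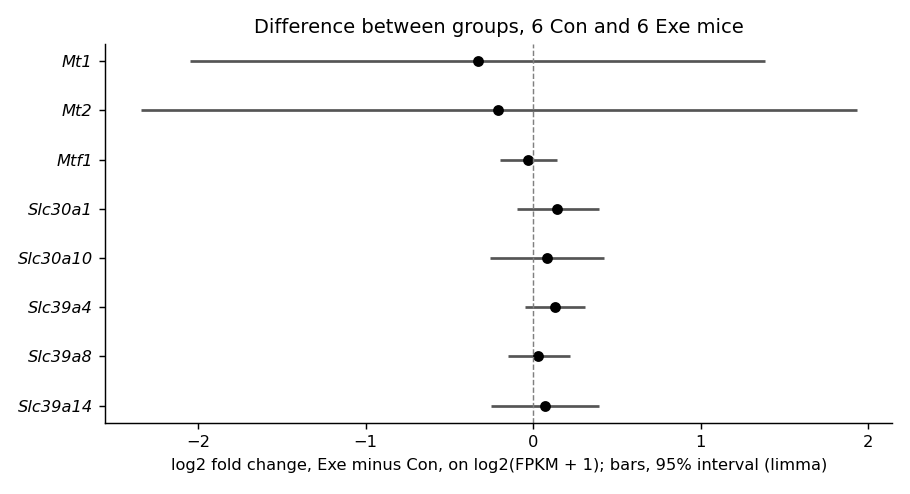
Log2 fold change of each member, Exe minus Con, on the log2(FPKM + 1) scale (points) with its 95% interval from limma (bars), n = 6 mice in each group. All 8 intervals include 0, and those of Mt1 and Mt2 are several times as wide as the others.

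Of the 8 members, 5 were higher and 3 lower in Exe mice by their estimates, 0 passed an adjusted p of 0.05 from limma (0% over the whole set) and 0 an unadjusted p of 0.05 (6.21% over the whole set). Their median log2 fold change was 0.050, beside 0.016 over all genes tested. Slc39a4 and Slc30a1 had the highest estimates among the transporters, with upper interval bounds of 0.31 and 0.39. The direction of Mt1, Mt2, Mtf1, Slc30a10, Slc39a8 and Slc39a14 depended on single mice, because each changed sign when 1 mouse was left out, while Slc30a1 and Slc39a4 did not.

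By level over all 12 mice, the mean FPKM went from Mt1 (192) and Mt2 (69.3) to Slc39a14 (42.3), Slc39a4 (38.9), Slc30a1 (9.63), Slc39a8 (6.95), Slc30a10 (6.55) and Mtf1 (2.04). Neighbours were compared within mice on log2(FPKM + 1) by an exact two-sided sign-flip permutation test, adjusted over 7 pairs. Mt1 exceeded Mt2 in all 12 mice (mean difference 1.83 ± 0.42 log2 units, SD, exact p = 0.000488, the smallest possible, adjusted 0.00114). Slc39a4 exceeded Slc30a1 in 12 of 12 mice by 1.92 ± 0.23 log2 units, and Slc30a10 exceeded Mtf1 in 12 of 12 by 1.29 ± 0.27, with the same exact p. Slc30a1 exceeded Slc39a8 in 11 mice (exact p = 0.000977, adjusted 0.00171).

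The remaining 3 neighbours did not differ beyond their spread. Mt2 was above Slc39a14 in 5 mice only (exact p = 0.332), and by the median over mice its level of 21.8 FPKM fell behind both Slc39a14 and Slc39a4. Slc39a14 was above Slc39a4 in 8 mice, 5 of them Con (exact p = 0.288, adjusted 0.332). Slc39a8 was above Slc30a10 in 7 mice (exact p = 0.160, adjusted 0.224). The importer Slc39a4 stood at 4.05 times the mean FPKM of the exporter Slc30a1.

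Among the 28 pairs of members, Mt1 with Mt2 was the pair that passed an adjusted p of 0.05. Slc39a8 came next with Slc39a4 (r = 0.73, permutation p = 0.0057, adjusted 0.0701) and with Slc30a10 (r = 0.70, permutation p = 0.0110, adjusted 0.0954). Within groups the first of these was 0.75 in Con mice and 0.82 in Exe mice (exact permutation p = 0.0944 and 0.0431). When each mouse was scaled to the same sum of FPKM, Slc39a4 with Slc39a8 passed the threshold (r = 0.78, adjusted p = 0.0286 by permutation). Slc39a8 with the NRF2 score had r = 0.73 (permutation p = 0.00674, adjusted 0.0701) and passed it under the same scaling (r = 0.77, adjusted p = 0.0440). Both metallothioneins had negative r with Slc30a10, Slc39a4 and Slc39a8, from -0.24 to -0.48, none of which passed an adjusted p of 0.05.

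**Figure D4:**
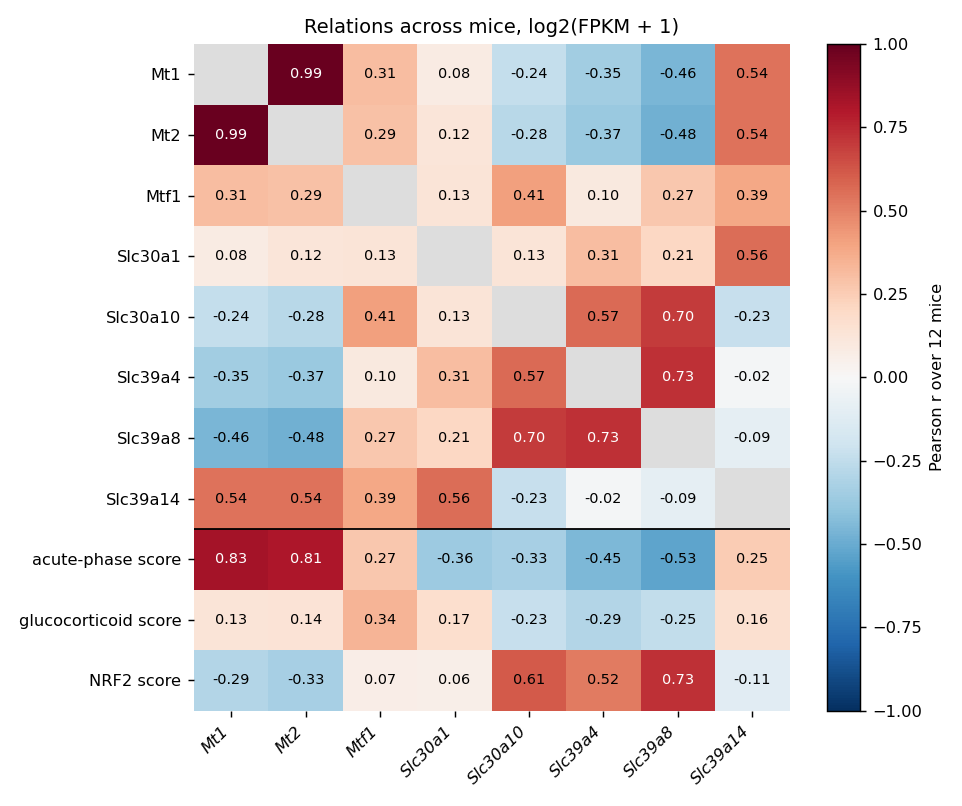
Pearson's r of log2(FPKM + 1) over 12 mice for the 28 pairs of members and for the 8 members with 3 scores (bottom rows), with the value in each cell (red positive, blue negative, grey the gene with itself). Mt1 and Mt2 stand out with each other (0.99) and with the acute-phase score (0.83 and 0.81), and Slc30a10, Slc39a4 and Slc39a8 have positive values among themselves (0.57 to 0.73).

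The counts of list genes at an unadjusted p of 0.05 that follow stand beside 6.21% of all genes, 437 higher and 199 lower. For the counts of genes higher or lower at any p, the share over all genes is not given here. The median log2 fold change of all genes tested was 0.016. Of 11 other ZIP importers, 7 were tested, with 3 higher and 4 lower in the Exe group, and 0 passed an unadjusted p of 0.05 (median log2 fold change -0.022, and 0.014 with each mouse scaled to the same sum). Slc39a7, which releases zinc from the endoplasmic reticulum, was the most abundant at 51.5 FPKM, above each importer among the members. Slc39a1 (37.6 FPKM) was near Slc39a4, and Slc39a5 and Slc39a10 were at 0.253 and 0.584 FPKM. Of 8 other ZnT genes, 5 were tested and 3 were higher, with a median of 0.025. Slc30a6, a Golgi transporter, passed an unadjusted p of 0.05 (log2 fold change 0.18, standard error 0.08, adjusted p = 0.799 from limma). Slc30a9 was the most abundant ZnT gene, at 16.5 FPKM, above Slc30a1.

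Of 14 copper genes, 13 were tested, with 9 higher and 4 lower in the Exe group (median 0.039). Steap3, a metal reductase, passed an unadjusted p of 0.05 at a log2 fold change of 0.27 ± 0.12 (standard error), with an adjusted p of 0.799 in limma, and Sod1, the copper and zinc superoxide dismutase, was the most abundant at 1624 FPKM. Of 8 genes of manganese handling and use, 7 were higher and 1 lower (median 0.069), with 0 at an unadjusted p of 0.05. Arg1, the manganese enzyme arginase, was the most abundant at 994 FPKM. Of the 4 lists, 0 genes reached an adjusted p of 0.05 from limma.

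Of the lists behind the scores, the acute-phase list had 2 tested genes higher and 15 lower in Exe mice (median -0.212). Genes of a list do not vary independently, so such counts are descriptions. Between groups the exact permutation p was 0.526 for the acute-phase score, 0.0909 for the glucocorticoid score and 0.831 for the NRF2 score. Crp passed an unadjusted p of 0.05 at a log2 fold change of 0.20 ± 0.08 (standard error), with an adjusted p of 0.793 in limma, and Hpx, the gene of hemopexin, was the most abundant at 5436 FPKM. Of 14 glucocorticoid-induced genes, 1 was higher and 13 lower (median -0.291), and Dusp1 (-0.93), Tat (-0.55) and Errfi1 (-0.36) passed an unadjusted p of 0.05, each with an adjusted p of 0.793 or 0.799 from limma. Pck1 was the most abundant at 932 FPKM. Of the NRF2 targets, 4 of the 11 tested were higher (median -0.042), Ugdh passed an unadjusted p of 0.05 (log2 fold change -0.27, adjusted p = 0.793 from limma) and Gstm1 was the most abundant at 1058 FPKM.

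**Figure D5:**
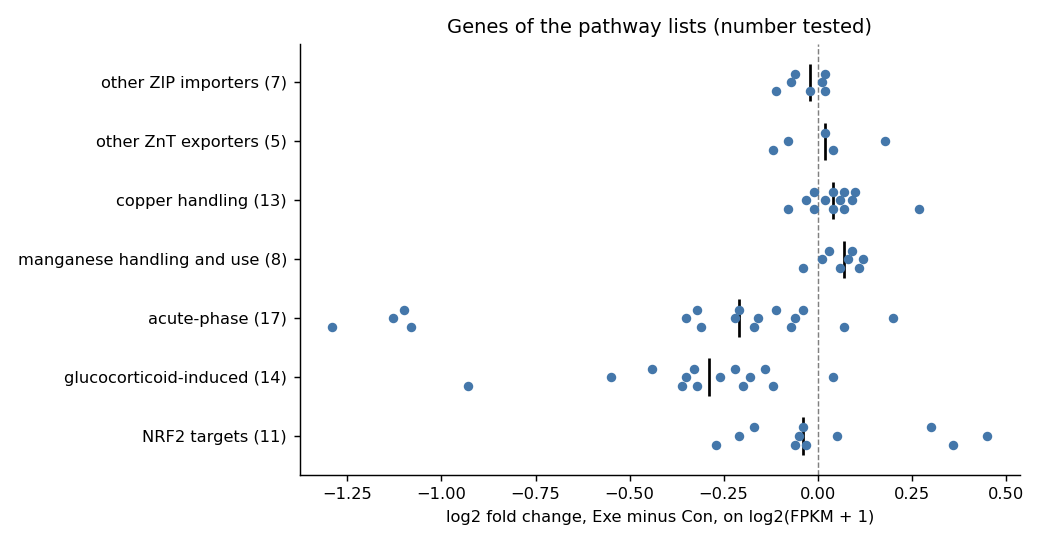
Log2 fold change, Exe minus Con, on the log2(FPKM + 1) scale for every tested gene of the 7 lists with tested genes (points, offset vertically for visibility), with the list median as a black line and the number tested in brackets. The zinc, copper and manganese lists lie close to 0, with medians from -0.022 to 0.069, and the acute-phase and glucocorticoid-induced lists reach from 0.20 and 0.04 down to -1.29 and -0.93.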

How the data were processed

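Liver RNA of 12 mice, 6 Con and 6 Exe, was sequenced with 1 library per mouse. Values are FPKM as the authors deposited them, with 2 decimals, from cleaned reads that HISAT had placed on GRCm39. The counting tool, annotation release and any scaling between mice are not given in the sources used here, and Bowtie2 and mm10 are named in the submitters' processing notes without a role. The authors compared groups with DESeq, which needs counts, so limma was used here on log2(FPKM + 1), which understates changes of low genes. Intervals and errors come from the observed spread between mice, which includes the counting error of each library. That part could not be given apart, because reads were not used.

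Genes with at least 1 FPKM in at least 6 mice were fitted with R 4.3.3 and limma 3.58.1 (group as the only term, variance trend, Benjamini-Hochberg adjustment, threshold 0.05). Simulated data with known changes served to test this fit. Python 3.11.15, numpy 2.4.6, pandas 2.3.3, matplotlib 3.10.9 and Biopython 1.88 served for permutation tests, which were two-sided, and figures. Metal response elements were searched in RefSeq promoters, in the 250 bases before the annotated start, and 6 members had such a window.

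Members and lists were chosen with earlier results of these data known. Named were the members, list genes at an unadjusted p of 0.05 (at most 4 per list), the most abundant gene of each list, the 3 genes most like each of 6 members, and markers of cell types. Chosen after seeing values were Slc39a1, Sod1 for its r with Mt1, Slc39a5, Slc39a10, Saa1, Saa2, Lcn2, Orm2, Hamp, Moxd1 and Mt3. Cell type lists were hepatocyte, Kupffer cell, sinusoidal endothelium, stellate cell, bile duct, pancreatic acinar, red blood cell, neutrophil, squamous epithelium and intestine. Alternatives were another pseudocount, other filters, quantile normalization, scaling to the same sum, robust moderation, the replicate number as a block, an acute-phase covariate and each mouse left out. Leaving out Con 6 and Exe 5, and outlier ratios on log2(FPKM + 1), were added after seeing the data.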

Additional observations from a re-analysis of the deposited data

Results flagged for a closer look

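Of 52 sets of 6 mice (8 members and 18 list sums in 2 groups), 11 had a mouse far from the others by Dixon's ratio on FPKM at 95%, where chance gives about 2.60 for values without skew. Con 2 was far above the other Con mice in Mt1, at 812 FPKM against 22.9 to 198 FPKM (ratio 0.778), and in Mt2, at 326 FPKM against 3.23 to 59.1 FPKM (0.827). Exe 5 was far above the other Exe mice in Mt1, at 613 FPKM against 31.4 to 148 FPKM (0.800), and in Mt2, at 257 FPKM against 5.09 to 51.9 FPKM (0.814). Exe 3 was far below its group in Slc30a1, at 7.0 FPKM against 10.1 to 11.4 FPKM (0.703). None of the other 11 member sets had such a mouse. On log2(FPKM + 1), the scale of the tests, the ratios of Con 2 and Exe 5 were 0.400 and 0.482 in Mt1 and 0.390 and 0.423 in Mt2, below the critical value, and that of Exe 3 in Slc30a1 was 0.746, past it. The high Mt1 and Mt2 of Con 2 and Exe 5 thus stand apart on the linear scale only.

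Exe 5 also had the highest sum of the acute-phase list, 58096 FPKM against 14910 to 26426 FPKM (0.733), of bile duct markers, 76.7 FPKM against 25.4 to 40.3 FPKM (0.711), and of pancreatic acinar markers, 19.2 FPKM (0.764). Most of the bile duct sum of Exe 5 was Spp1 alone, at 71.28 FPKM. In Con mice the bile duct sum ran from 27.2 to 75.0 FPKM, so Exe 5 stood apart in it among the Exe mice only. Con 6 stood apart in pancreatic acinar markers with 2.93 FPKM (0.768), and Con 1 in neutrophil markers with 34.1 FPKM against 11.9 to 19.8 FPKM (0.643). Con 2 stood apart in the squamous epithelium list with 1.18 FPKM against 0.800 to 0.930 FPKM (0.658), a sum over the 2 of its 6 genes that were listed. In the Exe group, Exe 2 had the same sum, 1.18 FPKM. The acute-phase sum of Con 2, 40488 FPKM, was below that of Con 1, 55327 FPKM. The part of other cells in the metallothionein levels of Con 2 and Exe 5 was not tested.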

How the results depend on the processing

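Of 304 values recomputed under the alternatives, 272 kept their direction and side of the threshold or, without a test, moved by less than the limit set for counts or the spread between mice, 10 lost their call, 9 counts moved and 13 fold changes of members changed sign. Among the 272, the median of the other ZIP importers also changed sign, from -0.022 to 0.014 with each mouse scaled to the same sum. The number of genes called was 0 in all but the fit without a filter, which called 1, and 0 with any mouse left out. Genes at an unadjusted p of 0.05 numbered 418 (without Exe 2) to 905 with 1 mouse left out, against 636.

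No member passed an adjusted p of 0.05 from limma in any fit. With the acute-phase score as a covariate the log2 fold change was 0.14 for Mt1 and 0.38 for Mt2, and without Con 6 and Exe 5 that of Slc39a14 was -0.01. With 1 mouse left out, the log2 fold change ran from -0.87 to 0.22 for Mt1 (0.22 without Con 2), from -0.85 to 0.46 for Mt2 (0.46 without Con 2, 0.23 without Exe 4), from -0.06 to 0.01 for Mtf1 (0.01 without Con 2 or Exe 6) and from -0.01 to 0.21 for Slc30a10 (-0.01 without Exe 4). It ran from -0.02 to 0.07 for Slc39a8 (-0.02 without Con 1, -0.01 without Exe 4) and from -0.03 to 0.15 for Slc39a14 (-0.03 without Con 4, -0.00 without Exe 5), and kept its sign for Slc30a1 (0.08 to 0.24) and Slc39a4 (0.07 to 0.16). The cause was not tested.

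Relations past an adjusted p of 0.05 numbered 3, then 5 with each mouse scaled to the same sum, 1 without Con 6 and Exe 5, and 1 to 4 with 1 mouse left out. By medians over mice, 5 of 8 members kept their place in the order of levels. Mouse numbers did not pair the samples: same-numbered mice correlated between -0.48 and 0.16, with 1 pair of 6 over 0.1, and 1 Con mouse correlated best with its own number. With the replicate block 0 genes were called and 567 passed an unadjusted p of 0.05. Depth in reads being unknown, counting error could not be given, which limits Mtf1 and other low genes most.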

Other observations

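Mice low in metallothionein also form a contrast. Con 4 and Exe 4 had the lowest Mt1 (22.95 and 31.44 FPKM), acute-phase scores of 7.25 and 7.29, and the highest Slc39a8 (8.0 and 8.24 FPKM) and Slc30a10 (8.44 and 9.53 FPKM) of their groups. Without Con 2 and Exe 5, r over the remaining mice was -0.87 between Mt1 and Slc39a8 (permutation p = 0.00137), -0.73 between Mt1 and Slc39a4 (permutation p = 0.0143) and -0.65 between Mt1 and Slc30a10 (permutation p = 0.0418), where over 12 mice it was -0.46, -0.35 and -0.24 (adjusted p = 0.446, 0.642 and 0.664 over 52 relations, by permutation). The p-values without these mice are not adjusted. Of the list genes, Sod1, which like the metallothioneins binds copper and zinc, had r = -0.83 with Mt1 over 12 mice, and Slc39a1, an importer, r = 0.78. Slc39a1 and Sod1 were chosen after their values were seen, so these are descriptions.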
